A study of Homo sapiens and Homo sapiens
Mus with 12 samples.

Results

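The 10 genes described here encode secreted factors that act on vessels or on matrix, or relatives of such factors. They are ADM, VEGFA, VEGFB, VEGFC, ANGPTL4, STC1, STC2, IGFBP3, LOX and LOXL2. Cells are known to make more of some of them, but not of each, when oxygen is short. All 10 are listed among the 21479 genes counted in cultured UM-UC-3 cells and among the 26813 human genes counted in xenograft tumors of the same cells. They were selected on their known function and on measured values of these samples, because ADM and others of the group were already known to be higher after CDH11 knockdown (KD) in culture. Differences from shCtrl in cultured cells, of these and of other genes, are therefore given as a description, calls and lost calls included, and nothing is read from those calls.

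UM-UC-3 is a human bladder cancer cell line. The cells were infected with lentiviral particles carrying GFP and a non-silencing hairpin (shCtrl) or one of 2 hairpins against CDH11, a cadherin of mesenchymal cells (sh#1 and sh#2), and GFP-positive cells were sorted, so the control cells carry the vector and GFP as well. RNA was sequenced from cells cultured for 24 hours in plates, 3 libraries in each group, and from tumors taken 4 weeks after subcutaneous injection of each kind of cell in Matrigel into nude mice, 5 weeks of age when injected, 5 tumors in each group. Nude mice lack a thymus and mature T cells, and all values come from 1 cell line. No source says that the 3 libraries of a cultured group came from separate cultures, so p-values there measure the spread between libraries, which may be technical.

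Cells sense oxygen through the HIF transcription factors. When oxygen falls, the prolyl hydroxylases that mark HIF1A and EPAS1 for destruction slow down, and the stabilized factors bind short DNA motifs beside their target genes. Secreted targets carry the signal out of the cell. Vascular endothelial growth factors and adrenomedullin act on vessels, angiopoietin-like 4 inhibits lipoprotein lipase and acts on endothelium, stanniocalcins are glycoprotein hormones, IGFBP3 binds insulin-like growth factors in the extracellular fluid, and lysyl oxidases crosslink collagen and elastin.

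On hg38 with the GENCODE annotation, ADM lies on chromosome 11 from 10305073 to 10307397 on the plus strand, VEGFB on chromosome 11 from 64234584 to 64239264 (plus), VEGFA on chromosome 6 from 43770184 to 43786487 (plus), ANGPTL4 on chromosome 19 from 8363289 to 8374370 (plus), VEGFC on chromosome 4 from 176683538 to 176792922 (minus), STC2 on chromosome 5 from 173314723 to 173328447 (minus), LOX on chromosome 5 from 122063195 to 122078413 (minus) and IGFBP3 on chromosome 7 from 45912245 to 45921874 (minus). All are annotated as protein coding in GENCODE.

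RefSeq promoter windows of 300 bases, from 250 before to 50 after the start site on GRCh38.p14, were matched for 7 of the 10 members. Windows of 4 members that were higher in both cultured KD groups (ADM, ANGPTL4, IGFBP3, STC2) are shown beside those of the relatives VEGFB and VEGFC, which had smaller differences. Capitals mark ACGTG or GCGTG, the core letters that HIF factors recognise, read on either strand, so that CACGT and CACGC are the same motifs on the other strand. Each sequence runs 5′ to 3′ on the strand of its gene.
ADM, chr11:10304823-10305122, plus strand: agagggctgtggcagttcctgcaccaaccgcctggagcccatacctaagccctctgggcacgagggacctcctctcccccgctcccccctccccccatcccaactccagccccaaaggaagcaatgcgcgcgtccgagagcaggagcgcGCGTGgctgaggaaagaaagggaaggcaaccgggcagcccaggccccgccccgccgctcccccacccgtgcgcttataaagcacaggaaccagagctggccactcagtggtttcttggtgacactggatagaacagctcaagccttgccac
ANGPTL4, chr19:8363905-8364204, plus strand: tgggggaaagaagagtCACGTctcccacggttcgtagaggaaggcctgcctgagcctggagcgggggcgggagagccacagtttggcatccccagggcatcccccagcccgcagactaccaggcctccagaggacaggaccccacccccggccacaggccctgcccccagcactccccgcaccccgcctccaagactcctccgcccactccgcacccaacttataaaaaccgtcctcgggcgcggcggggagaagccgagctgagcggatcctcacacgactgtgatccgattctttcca
IGFBP3, chr7:45921223-45921522, minus strand: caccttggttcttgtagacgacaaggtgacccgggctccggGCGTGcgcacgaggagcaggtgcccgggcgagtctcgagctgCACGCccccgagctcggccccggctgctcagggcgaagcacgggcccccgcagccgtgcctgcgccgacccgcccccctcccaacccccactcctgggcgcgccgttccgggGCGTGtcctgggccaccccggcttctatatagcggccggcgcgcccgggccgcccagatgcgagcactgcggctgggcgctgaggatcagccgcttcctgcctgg
STC2, chr5:173328365-173328664, minus strand: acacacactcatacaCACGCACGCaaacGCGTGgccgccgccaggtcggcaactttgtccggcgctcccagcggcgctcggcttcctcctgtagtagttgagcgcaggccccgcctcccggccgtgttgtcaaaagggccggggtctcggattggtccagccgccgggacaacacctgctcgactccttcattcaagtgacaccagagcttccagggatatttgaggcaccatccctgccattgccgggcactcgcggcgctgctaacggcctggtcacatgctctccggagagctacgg
VEGFB, chr11:64234334-64234633, plus strand: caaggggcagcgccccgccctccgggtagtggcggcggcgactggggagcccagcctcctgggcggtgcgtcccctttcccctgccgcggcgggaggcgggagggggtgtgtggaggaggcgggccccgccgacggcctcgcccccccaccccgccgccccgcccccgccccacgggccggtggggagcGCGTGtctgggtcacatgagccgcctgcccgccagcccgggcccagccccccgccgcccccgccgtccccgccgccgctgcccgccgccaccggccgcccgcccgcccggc
VEGFC, chr4:176792873-176793172, minus strand: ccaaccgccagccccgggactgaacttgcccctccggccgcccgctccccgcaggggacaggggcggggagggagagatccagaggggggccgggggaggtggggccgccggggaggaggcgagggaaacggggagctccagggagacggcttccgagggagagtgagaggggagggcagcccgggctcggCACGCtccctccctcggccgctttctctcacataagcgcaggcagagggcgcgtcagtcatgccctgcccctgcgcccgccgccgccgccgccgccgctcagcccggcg

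The ADM window held 1 motif, 101 bases before the start site, and the ANGPTL4 window held 1, 234 bases before it. IGFBP3 and STC2 held 3 motifs each. VEGFB and VEGFC held 1 each, and the 3 windows of LOX, which are not shown, held 2, 2 and 4. The LOX windows with 2 motifs overlap and hold the same 2 sites. Of all 35116 promoter windows of this length, 48.4% held at least 1 of these motifs and 23.1% at least 2. The E-box CACGTG, which contains ACGTG, was in 0 of the 6 windows shown and in 7.26% of all windows. A match describes letters in the window and is no measurement of binding.

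Total counts on genes ranged from 2273182 to 2777019 in the 9 cultured libraries, and from 414849 to 1248977 human and from 94406 to 220238 mouse counts in the 15 tumors. The targeted gene was close to the limit of detection in culture, with 2 to 4 CDH11 counts in shCtrl, 0 to 1 in sh#1 and 0 to 2 in sh#2 libraries, and had 5 to 32, 1 to 9 and 2 to 14 human counts in the tumors. The tumors of each group were sequenced in a library mix of their own, so mix and group cannot be told apart in any tumor comparison. Mouse genes took 10.4% to 30.0% of the counts of a tumor, the highest share being in sh#1 tumor 1, which also had the fewest human counts. Summed human endothelial markers had 1 to 10 counts per tumor, leukocyte markers 0 to 5, and fibroblast markers 7 to 136, of which COL1A1 had 5 to 132. Of 10 epithelial and urothelial markers, 4 had no count in any cultured library, while KRT8 had 253 to 345 counts and KRT18 287 to 539, and VIM, CDH2 and ZEB1 together had at least 5474 counts in each. Levels of single genes below are normalized CPM, counts scaled by TMM to the depth of their library but not to the length of the gene, while sums over marker lists are plain CPM, counts over the total of the library without TMM.

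ADM, VEGFA and ANGPTL4 are the vessel-directed ligands that give the group its name. In cultured cells they had higher levels in every KD library than in any shCtrl library. For no comparison was the share of all genes with groups fully apart counted, so separation of groups is given as a description. ADM had 68.9, 79.5 and 77.4 normalized CPM in shCtrl, 757, 782 and 909 in sh#1 libraries and 809.5, 864 and 984 in sh#2 libraries. No KD library overlapped with shCtrl, while the libraries of the hairpins overlapped with each other. The log2 fold change of both hairpins together against shCtrl was 3.50 ± 0.12 (standard error, n = 6 and 3), and it was 3.44 with sh#1 and 3.56 with sh#2. CD68, a leukocyte marker, was also higher in KD cells, by 0.67 ± 0.16 on the log2 scale. It was the 1 called there of the 8 markers of other cell types or of the mesenchymal state tested in culture. Over all genes tested, 9.12% were called higher and 8.32% lower. The other leukocyte markers, PTPRC, CSF1R, ITGAM, CD14 and LYZ, had at most 2 counts in any cultured library. With sh#1 alone KRT18 was higher by 0.54 ± 0.08 and CDH2 lower by -0.58 ± 0.14, where 11.8% of all genes were called higher and 10.6% lower. With sh#2 alone VIM was higher by 0.87 ± 0.06, where these shares were 19.5% and 18.8%. The part of these markers in the members' values was not tested.

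ANGPTL4 had 94.1, 92.7 and 93.8 normalized CPM in shCtrl, 512.5, 526.4 and 487 in sh#1 libraries, and 626, 651 and 585 in sh#2 libraries. The 3 groups did not overlap, with sh#2 above sh#1 and both above shCtrl. Its log2 fold change in KD cells was 2.59 ± 0.11. VEGFA, the main endothelial growth factor, had 42.5, 48.0 and 49.2 normalized CPM in shCtrl, 127, 123 and 127 in sh#1 libraries, and 140.4, 148 and 125 in sh#2 libraries. The libraries of the hairpins overlapped with each other but not with shCtrl. Its log2 fold change in KD cells was 1.497 ± 0.11.

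The other growth factors of the VEGF family differed less from shCtrl. VEGFB, which binds the receptor FLT1 and the coreceptor NRP1, had 51.7 ± 4.17 (SD, n = 3) normalized CPM in shCtrl, 43.7 ± 5.22 in sh#1 and 65.4 ± 4.66 in sh#2. The sh#2 libraries lay above all shCtrl libraries and the sh#1 libraries overlapped with shCtrl, so that the log2 fold change of both hairpins together was 0.07 ± 0.17. The value with sh#2 alone, 0.34 ± 0.12, was not past the threshold with DESeq2 or without shCtrl library 1 or 2 or sh#2 library 3. VEGFC, the ligand of FLT4 on lymphatic endothelium, had 17 to 25 counts in each of the 9 libraries and a log2 fold change of 0.15 ± 0.22. VEGFC was not called in any of the cultured comparisons.

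**Figure D1:**
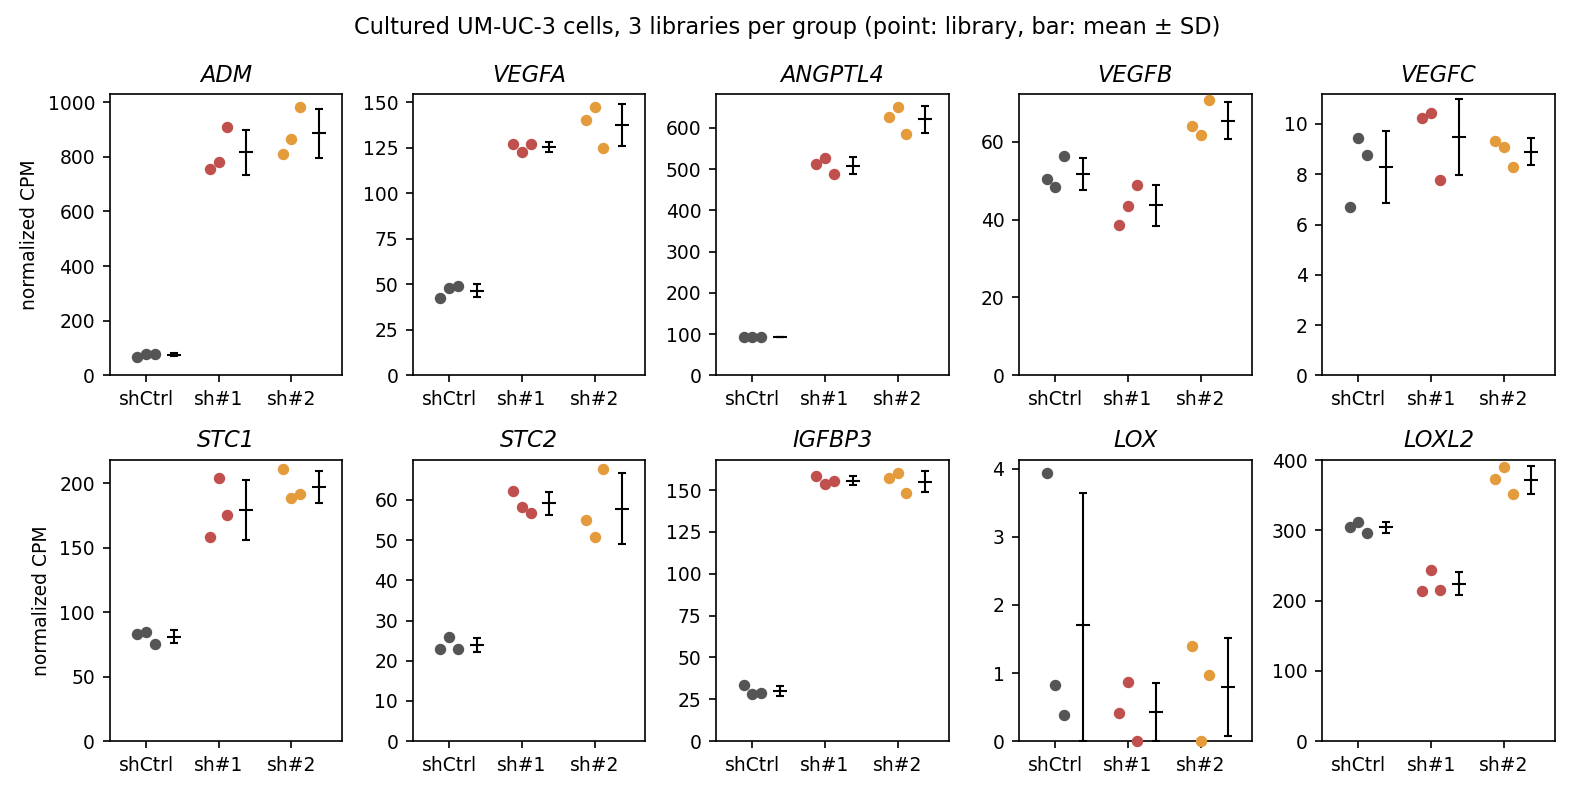
Normalized CPM (linear axes from 0) of the 10 genes in cultured UM-UC-3 cells with shCtrl, sh#1 or sh#2. Points are libraries, bars the mean ± SD of 3 libraries. ADM, VEGFA, ANGPTL4, STC1, STC2 and IGFBP3 have all 6 KD libraries above the 3 shCtrl libraries, LOXL2 is lowest in sh#1 and highest in sh#2, and LOX is near 0.

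The hormones and the IGF binding protein were higher in KD cells too. IGFBP3, which carries insulin-like growth factors outside cells, had 33.5, 28.3 and 28.6 normalized CPM in shCtrl, 158, 153 and 155 in sh#1 libraries, and 157, 160.1 and 148 in sh#2 libraries. The sh#1 libraries of IGFBP3 lay within the range of the sh#2 libraries, and its log2 fold change in KD cells was 2.37 ± 0.11. STC1 had 81.1 ± 5.00 (SD, n = 3) normalized CPM in shCtrl, 179 ± 23.3 in sh#1 and 197 ± 12.5 in sh#2, a log2 fold change of 1.21 ± 0.11 in KD cells. STC2, the second stanniocalcin, had 23.8 ± 1.72, 59.1 ± 2.90 and 57.8 ± 8.85 normalized CPM in these groups, a log2 fold change of 1.29 ± 0.13. For both stanniocalcins the lowest KD library lay above the highest shCtrl library.

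Of the lysyl oxidases, LOX had 0 to 10 counts in the cultured libraries, which was under the low-count filter, and was not tested. LOXL2, a lysyl oxidase that also acts on basement membrane collagen IV, had 305.5, 312 and 296 normalized CPM in shCtrl, 214, 243 and 216 in sh#1 libraries, and 373, 391 and 352 in sh#2 libraries. All sh#1 libraries were below and all sh#2 libraries above shCtrl. The log2 fold changes were -0.44 ± 0.07 with sh#1 and 0.29 ± 0.07 with sh#2, and the value for both hairpins together was -0.03 ± 0.21.

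Of the 9 members tested in culture, 6 were past the threshold of an adjusted p (q value) of 0.05 in KD cells, all higher, where 9.12% of the 9859 genes tested were called higher and 8.32% lower. With sh#1, 6 were called higher and 1 lower, against 11.8% and 10.6% of all genes, and with sh#2 8 were higher and 0 lower, against 19.5% and 18.8%. The median log2 fold change of the 9 members was 1.29 in KD cells, beside 1.66e-04 over all genes tested. These contrasts share the shCtrl libraries and are the ones by which the members were chosen, so nothing is read from the counts.

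How the hairpins differed from each other in culture was not used to choose the members. In sh#1 cells 3 of the 9 members tested were lower than in sh#2 cells and 0 were higher, where 13.5% of all genes tested were called lower and 11.2% higher. LOXL2 was lower with a log2 difference of -0.73 ± 0.07 (q = 1.496e-12 by edgeR, adjusted after Benjamini and Hochberg), VEGFB with -0.58 ± 0.12 (q = 3.30e-04) and ANGPTL4 with -0.29 ± 0.06 (q = 2.32e-04), and the sh#1 libraries of each lay below all sh#2 libraries. The share of all genes lying apart in this way was not counted. LOXL2, VEGFB and ANGPTL4 stayed past the threshold in all 14 alternatives run for this comparison. ADM differed by -0.12 ± 0.07 (q = 0.223), VEGFA by -0.13 ± 0.09 (q = 0.301) and STC1 by -0.14 ± 0.08 (q = 0.23), and ADM passed without sh#1 replicate 3 (q = 0.0261) and STC1 without sh#1 replicate 2 (q = 0.0462). STC2 at 0.03 ± 0.12, IGFBP3 at 0.01 ± 0.08 and VEGFC at 0.08 ± 0.27 had q values of 0.884, 0.975 and 0.872. Summed levels of the mesenchymal markers also differed between the hairpins, at 2408 to 2636 plain CPM in sh#1 and 3649 to 4001 in sh#2 libraries, and of the epithelial and urothelial markers at 319 to 327 and 242 to 255. VIM made up most of the mesenchymal sum and was lower in sh#1 (-0.79 ± 0.06, q = 3.89e-17, edgeR), while CDH2 (q = 0.103) and ZEB1 (q = 0.259) were not called. KRT18 was higher in sh#1 (0.44 ± 0.08, q = 1.63e-05, edgeR) and KRT8 was not called (-0.13 ± 0.09). Of the endothelial and leukocyte markers 1 of each was tested, and TIE1 (-0.69 ± 0.22, q = 0.0139, edgeR) and CD68 (-0.40 ± 0.13, q = 0.017) were lower in sh#1. Their part in the differences was not tested.

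By human counts, VEGFA was the member with the smallest p in KD tumors against shCtrl tumors. It had 33.7, 42.2, 70.7, 45.4 and 49.0 normalized CPM in the shCtrl tumors, 105, 85.9, 52.0, 69.6 and 73.7 in sh#1 and 65.4, 146, 105, 58.7 and 74.5 in sh#2 tumors. All 10 KD tumors lay above the shCtrl mean of 48.2 ± 13.8 (SD, n = 5) and 6 of them above the highest shCtrl tumor, so the groups overlapped.

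VEGFA was higher in sh#2 tumors than in shCtrl, with a log2 fold change of 0.93 ± 0.25 (q = 0.0777 by edgeR, threshold 0.1). With sh#1 it was 0.65 ± 0.26 (q = 0.315) and with both hairpins together 0.80 ± 0.22 (q = 0.112), which did not pass. The difference between the hairpins was -0.27 ± 0.24 (q = 0.762), so a difference between them was not shown. The sh#2 call was lost without shCtrl tumor 1, 2 or 4 or sh#2 tumor 2 or 3 (q from 0.133 to 0.169) and with the mouse to human ratio of total counts added to the fit (0.69, q = 0.137), and the value for both hairpins passed in 9 of 22 alternatives, among them DESeq2 (q = 0.0375), no low-count filter (q = 1.96e-04) and those leaving out shCtrl tumor 3, sh#1 tumor 3 or sh#2 tumor 2 or 4 (q from 0.0361 to 0.0828).

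ADM, the member with the largest difference in culture, had 34.5, 24.9, 103, 36.5 and 38.3 normalized CPM in shCtrl tumors, 161, 89.3, 53.0, 31.5 and 36.4 in sh#1 and 28.4, 30.9, 34.5, 53.4 and 45.8 in sh#2 tumors. The 3 groups overlapped, and sh#1 held both the highest tumor and tumors within the shCtrl range. Its log2 fold change in KD tumors was 0.16 ± 0.45 (q = 0.923, edgeR). Without shCtrl tumor 3, which had more ADM than the other shCtrl tumors, it was 0.64, and with the mouse to human ratio as a covariate -0.21, and neither was called.

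ANGPTL4 had 398, 279, 591, 172.5 and 190 normalized CPM in shCtrl tumors, 588, 325.5, 335, 202 and 203 in sh#1 and 269, 262, 208, 290.3 and 275 in sh#2 tumors. Every sh#2 tumor was below the shCtrl mean of 326 ± 173 (SD, n = 5) and within the range of the shCtrl tumors. Its log2 fold change was -0.17 ± 0.31 in KD tumors (q = 0.872, edgeR). VEGFB and VEGFC had log2 fold changes of -0.07 ± 0.15 and -0.05 ± 0.26 (q = 0.885 and 0.964).

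STC1 and LOXL2 had the next smallest p after VEGFA, and IGFBP3 was spread widely. STC1 had 132, 115, 299, 125 and 82.7 normalized CPM in shCtrl tumors, 458, 279, 197, 126 and 133 in sh#1 and 301, 169, 186, 306 and 178 in sh#2 tumors, a log2 fold change of 0.60 ± 0.35 in KD tumors (q = 0.52, edgeR). Its value was 0.99 without shCtrl tumor 3 (q = 0.231, edgeR) and 0.35 with the mouse to human ratio as a covariate (q = 0.80). All sh#2 tumors lay above the shCtrl mean of STC1, as did 3 of 5 sh#1 tumors. LOXL2 had 28.9, 38.95, 34.2, 30.2 and 19.9 normalized CPM in shCtrl tumors, 44.4, 36.2, 33.9, 47.9 and 42.4 in sh#1 and 39.8, 36.3, 40.2, 53.4 and 22.9 in sh#2 tumors. For LOXL2 9 of 10 KD tumors lay above the shCtrl mean, with a log2 fold change of 0.38 ± 0.17 (q = 0.341, edgeR).

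IGFBP3 ranged from 3.25 to 29.4 normalized CPM in shCtrl tumors, from 7.91 to 97.1 in sh#1 tumors and from 16.0 to 45.7 in sh#2 tumors, a log2 fold change of 0.57 ± 0.49 (q = 0.687, edgeR). STC2, with 1 to 5 counts per tumor, and LOX, with 0 to 7, were under the low-count filter and were not tested.

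**Figure D2:**
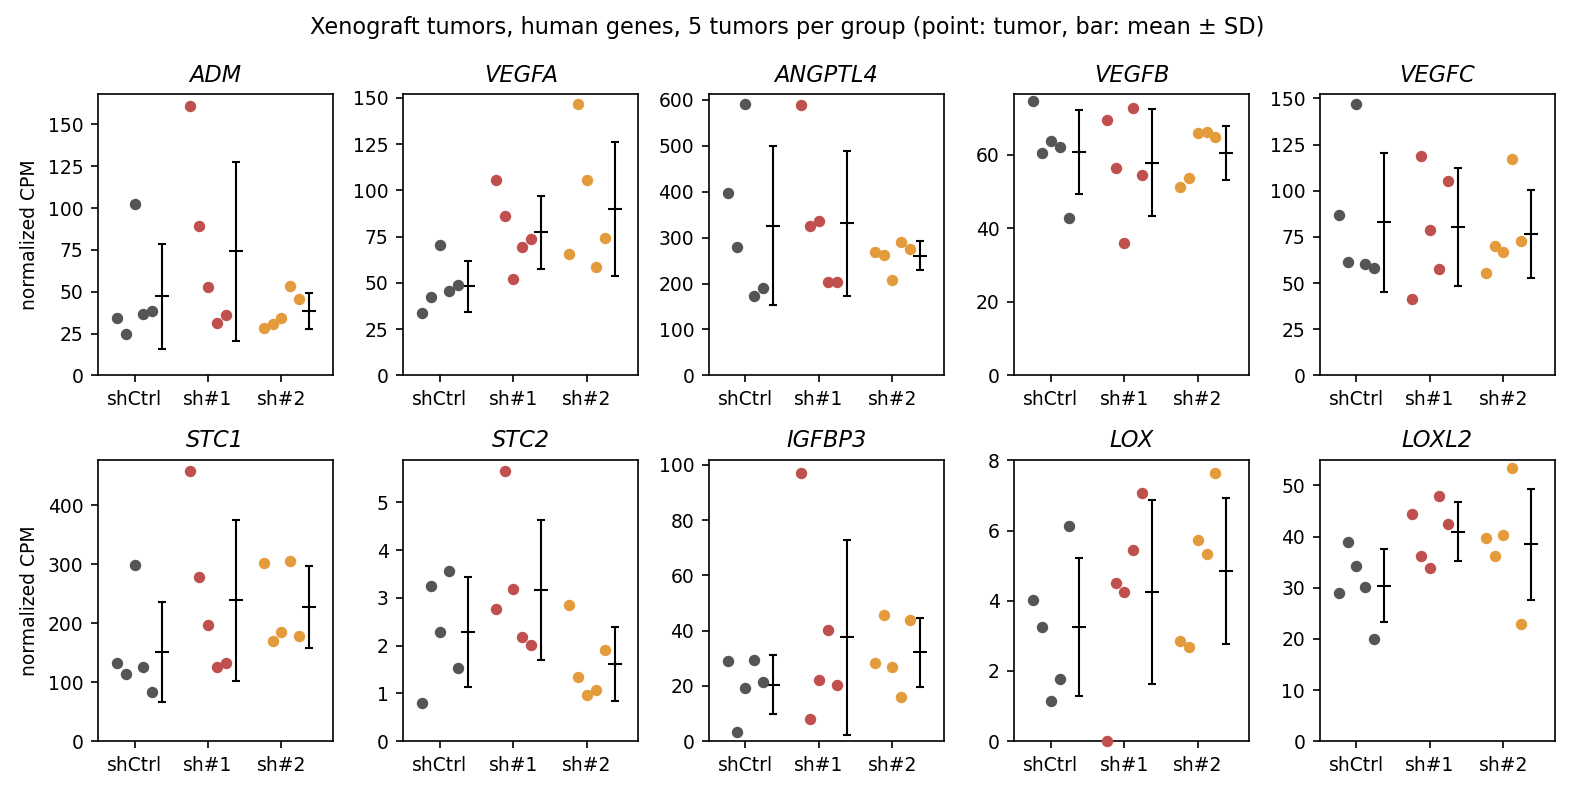
Normalized CPM (linear axes from 0) of the human genes in xenograft tumors of shCtrl, sh#1 and sh#2 cells. Points are tumors, bars the mean ± SD of 5 tumors. For VEGFA all 10 KD tumors lie above the shCtrl mean of 48.2, while ADM, ANGPTL4 and STC1 have single high tumors in shCtrl and in sh#1.

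Single tumors were high for several members at once. The third shCtrl tumor had the highest shCtrl level of 5 members, ADM, VEGFA, VEGFC, ANGPTL4 and STC1, and the highest of all 15 tumors for VEGFC and ANGPTL4. In sh#1 the first tumor was the highest of its group for 5 members, ADM, VEGFA, ANGPTL4, STC1 and IGFBP3, and the highest of all 15 tumors for ADM, STC1 and IGFBP3. In sh#2 the fourth tumor was the highest of its group for 6 members, ADM, VEGFB, VEGFC, ANGPTL4, STC1 and LOXL2. The first sh#1 tumor is the one with 30.0% of its counts on mouse genes and 414849 human counts, and the part of either in these levels was not tested. Leaving the first sh#1 tumor out gave log2 fold changes in KD tumors of -0.06 for ADM, 0.46 for STC1, 0.36 for IGFBP3 and 0.76 for VEGFA, none of them called.

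Of the 8 members tested in tumors, 0 were called in KD tumors by edgeR, where 0.697% of the 9184 genes tested were called higher and 0.817% lower. At an unadjusted p under 0.05 there were 2 members, VEGFA and LOXL2, and DESeq2 called 1, VEGFA. With sh#1 0 members were called by edgeR or DESeq2, 1 having an unadjusted p under 0.05, where 0.773% of genes were called higher and 0.708% lower, and with sh#2 1 was called higher, VEGFA, where 1.36% were higher and 1.32% lower. Between sh#1 and sh#2 tumors 0 members were called by either tool and 0 had an unadjusted p under 0.05, where 0.642% of genes were called higher and 0.544% lower. The median log2 fold change of the 8 members in KD tumors was 0.27, beside 0.01 over all genes tested.

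**Figure D3:**
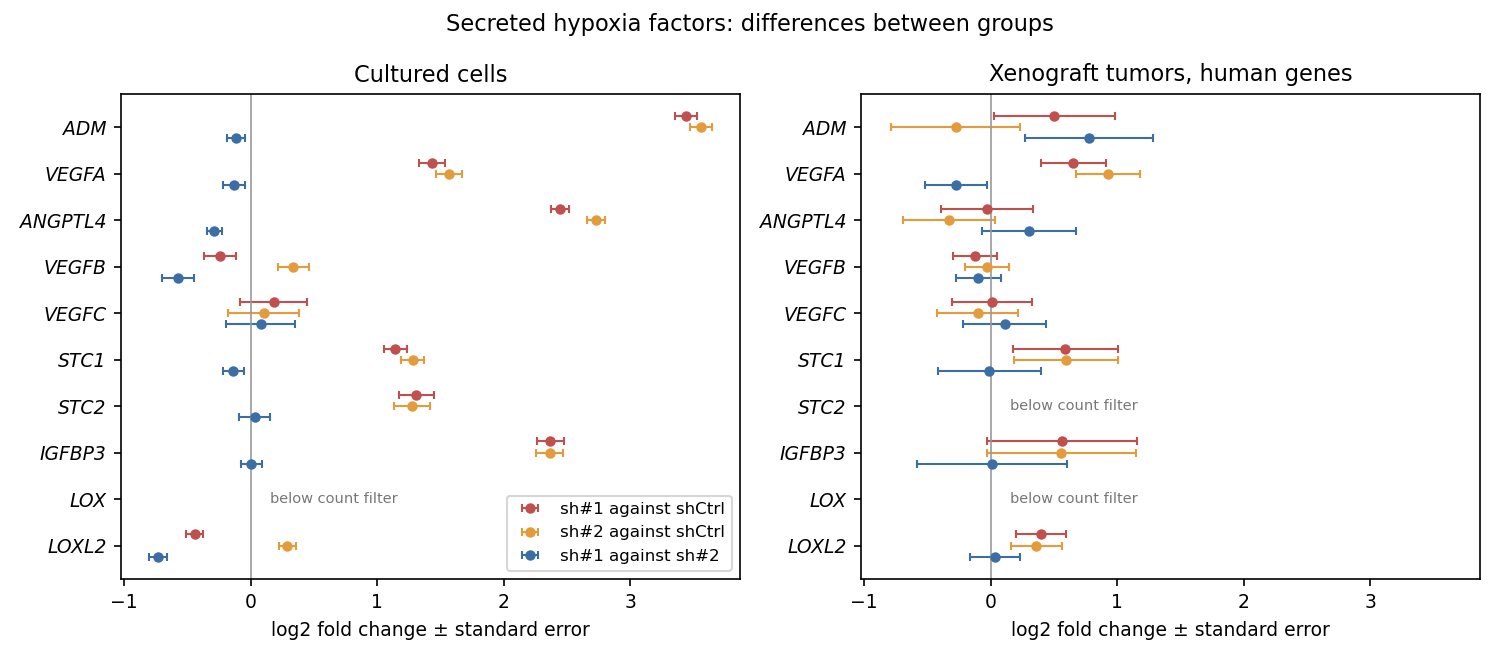
Log2 fold change ± standard error of each gene between groups, in cultured cells (left, n = 3 per group) and human genes of xenograft tumors (right, n = 5 per group), on the same axis. ADM lies at 3.44 and 3.56 with sh#1 and sh#2 in culture and at 0.50 and -0.27 in tumors, where the error bars are longer. Genes under the low-count filter have no point.

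Set side by side, the culture and tumor values of KD against shCtrl were 3.50 and 0.16 for ADM, 2.59 and -0.17 for ANGPTL4, 2.37 and 0.57 for IGFBP3, 1.497 and 0.80 for VEGFA, and 1.21 and 0.60 for STC1, all on the log2 scale. For the other members tested in both systems they were -0.03 and 0.38 for LOXL2, 0.07 and -0.07 for VEGFB, and 0.15 and -0.05 for VEGFC. The tables were normalized separately and the culture contrast chose the members, so the difference between systems was not tested. The paper reports that KD tumors were smaller than shCtrl tumors, and that necrosis was broad in shCtrl and limited in KD tumors. Tumor size and necrosis therefore differ with group as well, and their part in the tumor values was not tested. In the tumors each value is an average over the tumor's human cells, and fewer cells with a transcript cannot be told apart from less of it in each cell.

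Mouse genes of the same names were counted in the host tissue of these tumors. Vegfa was the member with the smallest p there. It had 104 to 280.3 normalized CPM (median 139) in shCtrl tumors, 138 to 327 (median 315) in sh#1 and 209 to 313 (median 274) in sh#2 tumors, from 16 to 60 counts in each. In sh#1 4 of 5 tumors and in sh#2 all 5 lay above the shCtrl mean. The log2 fold change of Vegfa in KD tumors was 0.61 ± 0.25 (q = 0.848, edgeR), so it was not called. How human and mouse reads were separated is not given in the sources used here, and the part of mouse reads in human VEGFA or the reverse was not tested.

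Of the other mouse genes tested, Stc1 differed by 0.36 ± 0.30, Lox by 0.54 ± 0.46, Loxl2 by 0.17 ± 0.39 and Igfbp3 by 0.03 ± 0.46 on the log2 scale, with q values from 0.917 to 0.99 (edgeR). The host tissue had counts of Lox in every tumor, 4 to 60, where the human table had 0 to 7 of LOX. Mouse Igfbp3 had 2 counts in the lowest sh#1 tumor and 70 to 103 in shCtrl, and its value without that tumor, sh#1 tumor 1, was 0.18. Adm, Vegfb, Vegfc, Angptl4 and Stc2 were under the low-count filter. Of the 5 mouse genes tested 0 were called by edgeR or DESeq2, 1 of them, Vegfa, having an unadjusted p under 0.05, and 0% of the 1669 mouse genes tested were called higher and 0% lower, with 92 at an unadjusted p under 0.05 and 1 called by DESeq2. Mouse endothelial markers summed to 191 to 371 plain CPM in shCtrl tumors, where sh#1 tumors had 112 to 312 and sh#2 tumors 264 to 477.

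**Figure D4:**
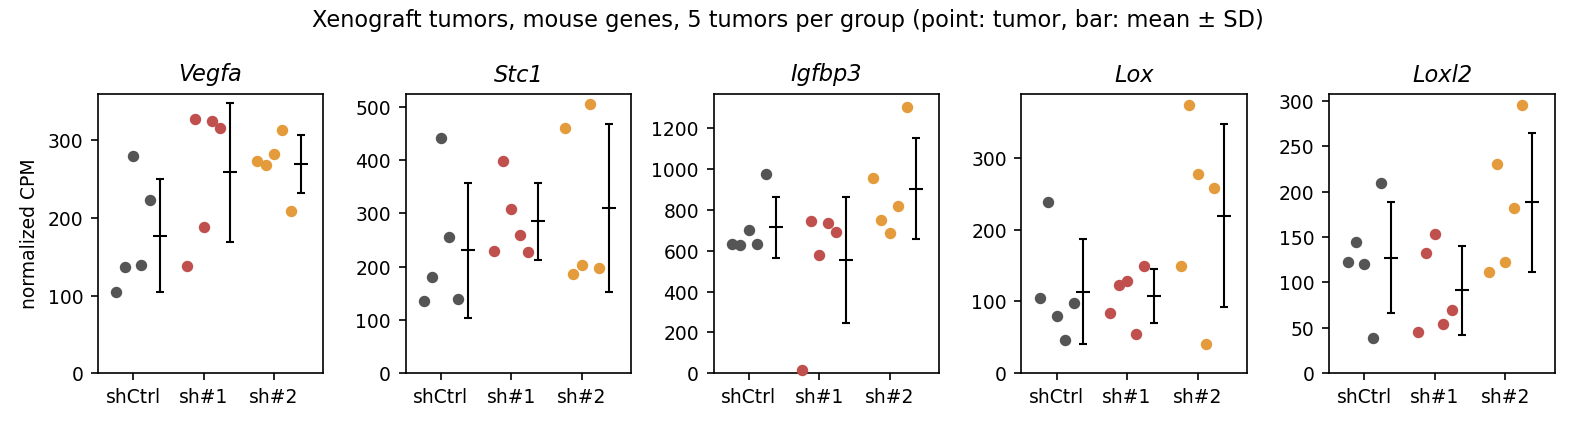
Normalized CPM (linear axes from 0) of the 5 mouse genes that passed the low-count filter, in the host tissue of shCtrl, sh#1 and sh#2 tumors. Points are tumors, bars the mean ± SD of 5 tumors. The groups overlap for each gene, and the 5 lowest values of Vegfa lie outside sh#2.

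Receptors and partners of the members were a list of 20 genes, of which 10 were tested in culture and 8 in tumors. Between the hairpins in culture 6 were lower in sh#1 than in sh#2 and 0 higher, where 13.5% and 11.2% of all genes were, led by ITGB3, an integrin beta chain (-1.29 ± 0.23, q = 1.64e-05, edgeR), LRP1, an endocytic receptor (-1.31 ± 0.25, q = 3.69e-05), and ITGB1 (-0.28 ± 0.06, q = 1.14e-04). In KD cells, where 9.12% of all genes were called higher and 8.32% lower, IGF2, a growth factor that IGFBP3 binds, was higher by 1.00 ± 0.11 on the log2 scale and ITGB3 by 1.17 ± 0.38, and 0 were lower. ITGB3, with 14 to 46 counts, passed in 5 of 15 alternatives and was lost without any 1 of the shCtrl or sh#2 libraries (q from 0.0708 to 0.168 in edgeR).

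In tumors IGF2R, the receptor that takes up IGF2, was higher in KD, with 89.3 ± 14.6 (SD, n = 5) normalized CPM in shCtrl, 173 ± 51.9 in sh#1 and 146 ± 14.2 in sh#2. Every KD tumor, from 123 to 252, lay above every shCtrl tumor, from 70.3 to 104. The log2 fold change was 0.85 ± 0.15 (q = 9.77e-04, edgeR), and it was called in all 22 alternatives and with each hairpin. Of the 8 genes of this list tested in KD tumors, 1 was called higher and 0 lower. Over all genes tested there, 0.697% were called higher and 0.817% lower. In cultured cells IGF2R had 69.7 ± 4.48 normalized CPM in shCtrl and 62.6 ± 8.08 (n = 6) in KD cells and was not called. NRP2, a coreceptor of VEGFC, was lower in sh#2 tumors than in shCtrl (-1.26 ± 0.38, q = 0.0909, edgeR), where 1.36% of all genes were called higher and 1.32% lower. NRP2 passed in 8 of 20 alternatives. Its call was lost without shCtrl tumor 1 (-0.88, q = 0.376) or 4, sh#1 tumor 3 or 5, or any 1 of the sh#2 tumors (q up to 0.209 there).

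Of 24 family relatives of the members, 7 were tested in culture and 5 in tumors. In sh#1 against sh#2 cells, where 11.2% of all genes were higher and 13.5% lower, 3 were higher, PDGFA (0.97 ± 0.23, q = 9.10e-04, edgeR), ANGPT1 (0.92 ± 0.23, q = 0.00207) and IGFBP7 (0.61 ± 0.17, q = 0.00625), and 1 was lower. The IGFBP7 call was lost without sh#1 library 1 or sh#2 library 1 (q = 0.0706 and 0.0716, edgeR). Against shCtrl, where 9.12% of all genes were called higher and 8.32% lower in KD cells, PDGFA and IGFBP6 were higher, by 1.33 ± 0.33 and 0.39 ± 0.11 on the log2 scale, and IGFBP7 was lower by -0.70 ± 0.20. The calls of PDGFA and IGFBP6 were lost without shCtrl library 2 or 3 and that of IGFBP7 without shCtrl library 1 or 3 and with a replicate block. IGFBP6 was the relative called in tumors, with 38.4 ± 12.4 (SD, n = 5) normalized CPM in shCtrl, 88.5 ± 35.2 in sh#1 and 35.5 ± 3.85 in sh#2. All sh#1 tumors, from 60.5 to 150, lay above all others. It was higher in sh#1 than in shCtrl by 1.13 ± 0.21 (q = 0.00172, edgeR) and than in sh#2 by 1.25 ± 0.22 (q = 0.00138), in all 21 alternatives of both comparisons. Over all genes tested, 0.773% were called higher and 0.708% lower in sh#1 than in shCtrl tumors. Against sh#2 tumors these shares were 0.642% and 0.544%.

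A further list held 22 hypoxia-responsive factors, most of them secreted, of which 14 were tested in culture. In KD cells, the contrast known when the list was written, 7 were higher and 1 lower, where 9.12% and 8.32% of all genes were, with CCN1, a matrix-bound signalling protein, having 166 ± 3.55 normalized CPM (SD, n = 3) in shCtrl and 622 ± 99.5 (n = 6) in KD cells, and PLAUR, the urokinase receptor, at 188 ± 14.2 and 528 ± 64.2. Between the hairpins 6 were lower and 3 higher in sh#1, where 13.5% and 11.2% of all genes were. They were led by MIF, a cytokine (-0.64 ± 0.06, q = 2.74e-13, edgeR), TFRC, the transferrin receptor (1.02 ± 0.16, q = 7.55e-07), and CCN1 (-0.37 ± 0.06, q = 9.28e-06). TFRC was the 1 gene of the list called lower in KD cells, with a mean normalized CPM of 74.1 in shCtrl, 43.4 in sh#1 and 21.4 in sh#2. In tumors 10 of this list were tested. CXCL8, a neutrophil chemokine, was higher with sh#1 (1.39 ± 0.36, q = 0.0601, edgeR), where 0.773% of all genes were called higher and 0.708% lower. It had 9.33 ± 3.09 (SD, n = 5) normalized CPM in shCtrl, 27.0 ± 16.4 in sh#1 and 9.53 ± 5.19 in sh#2. With sh#2 (0.07 ± 0.42, q = 0.968, edgeR) and with both hairpins together (0.87 ± 0.46, q = 0.449) CXCL8 was not called. The sh#1 call passed in 12 of 20 alternatives and was lost without shCtrl tumor 1, 2 or 4 or sh#1 tumor 1, 2 or 3 (q from 0.124 to 0.181).

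Enzymes and proteins of collagen and matrix were a list of 12 that leaves out the lysyl oxidases. Of 11 tested, 7 were lower in sh#1 than in sh#2 cells and 0 higher, where 13.5% and 11.2% of all genes were, with a median log2 difference of -0.84 beside 0.01 over all genes. P4HB, P4HA2 and PLOD1, which hydroxylate prolines and lysines of collagen or serve as the partner chain, were lower by -1.09 ± 0.07 (q = 3.76e-19, edgeR), -1.32 ± 0.09 (q = 6.29e-18) and -1.30 ± 0.09 (q = 1.37e-17). P4HA2 had 48.1 ± 3.00 (SD, n = 3) normalized CPM in shCtrl, 76.1 ± 4.85 in sh#1 and 190.5 ± 2.40 in sh#2 cells. In KD cells, where 9.12% of all genes were called higher and 8.32% lower, P4HA1 and PLOD2 were higher, by 1.17 ± 0.21 and 1.34 ± 0.27 on the log2 scale, and 2 were lower, with SPARC at -0.69 ± 0.12. In tumors 0 of the 8 tested were called in any comparison by edgeR, where 0.544% to 1.36% of all genes were in either direction, and at most 1 in a comparison had an unadjusted p under 0.05.

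Among 13 genes of oxygen sensing, 10 were tested in culture. EGLN1, the main prolyl hydroxylase of HIF, had 28.9 ± 5.77 (SD, n = 3) normalized CPM in shCtrl, 54.9 ± 7.61 in sh#1 and 83.7 ± 2.41 in sh#2, and CITED2, which competes with HIF for its coactivators, 27.6 ± 2.33, 86.3 ± 10.1 and 51.1 ± 2.67, both called higher in KD cells. Of the 10 tested, 2 were called higher and 2 lower there, where 9.12% and 8.32% of all genes were, with CREBBP, a coactivator of HIF, at -0.54 ± 0.15 on the log2 scale, a call that was lost without shCtrl library 1. Against sh#2, sh#1 had less EGLN1 (-0.61 ± 0.12, q = 9.18e-05, edgeR) and ARNT (-0.64 ± 0.20, q = 0.0116) and more CITED2 (0.75 ± 0.12, q = 1.28e-06). The ARNT call was lost with DESeq2 and without sh#1 library 3 or sh#2 library 2 (q from 0.0673 to 0.0833). In tumors 0 of the 8 tested were called in any comparison by edgeR, where 0.544% to 1.36% of all genes were in either direction, and up to 3 in a comparison had an unadjusted p under 0.05. These lists were written with earlier results of these data known.

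The genes most like ADM, VEGFA and ANGPTL4 over the libraries were found by the root mean square difference of log2 normalized CPM, each gene centred on its shCtrl mean. Over the 9 cultured libraries and 8110 genes, they were BHLHE40, HILPDA and CXCL8 for ADM (differences of 0.24, 0.29 and 0.32), PLAUR and CCN2 for VEGFA (0.09 and 0.16) and PFKFB4, BIRC3 and DEPP1 for ANGPTL4 (0.15, 0.21 and 0.23). Over the 15 tumors and 6445 genes, they were PGK1, CEBPB and SESN2 for ADM (0.34, 0.36 and 0.37), SOX9, MARCKS and ERMP1 for VEGFA (0.33, 0.35 and 0.35) and TM4SF1, PHTF2 and IMPA1 for ANGPTL4 (0.27, 0.33 and 0.34). No gene was on both lists of a member. The measure describes likeness in these libraries, and no test was made of it.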

How the data were processed

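RNA was measured by 75-base single-end sequencing in UM-UC-3 cells, as 9 cultured libraries and 15 xenograft tumors. The authors deposited raw counts per gene. For culture, reads were trimmed in CLC Genomics Workbench and mapped to hg38 with RaNAseq, and for tumors, trimmed with Trim Galore and mapped to hg38 with HISAT2. The counting tools, use of molecular identifiers, the mouse build and how human and mouse reads were separated are not given in the sources used here. Single-end counts of genes that share sequence between species may therefore hold reads of both.

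Each table was normalized on its own by TMM and tested with edgeR 4.0.16 (R 4.3.3) by robust quasi-likelihood F-tests after filterByExpr (minimum count 10), with Benjamini-Hochberg adjustment over all genes tested. Thresholds were q of 0.05 in culture and 0.1 in tumors, the q limits of the study's methods, with no limit on the fold change. KD joins both hairpins against shCtrl in a fit of 2 groups, and each hairpin comes from a fit of 3 groups. Errors of log2 fold changes are standard errors. The steps were tested on simulated data. Alternatives were DESeq2 1.42.0, upper quartile scaling, other low-count filters, a replicate block, 3 groups for KD, the mouse to human ratio as a covariate and each sample left out.

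All 10 members are named in every comparison, the 3 genes with the smallest p among those called in each other list, and the 3 genes most like ADM, VEGFA and ANGPTL4 among tested genes averaging 20 counts or more (log2 normalized CPM with a prior count of 2). One gene that the rule names is not reported here. The members and lists were chosen with earlier results of these data known. No pair of libraries agreed within sampling noise (chi-square per degree of freedom of at least 1.30). Total counts, from 2273182 to 2777019 in culture and from 414849 to 1248977 in tumors, limit the precision together with the spread between samples. Members under the filter are given as counts.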

Additional observations from a re-analysis of the deposited data

Results flagged for a closer look

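In 3 of the 24 groups of 5 tumors examined, 1 tumor stood far from the rest of its group by Dixon's test at 95%, which chance gives in about 1 in 20 groups. ADM had 102.6 normalized CPM (90 counts) in shCtrl tumor 3, where the other shCtrl tumors had 24.9 to 38.3. STC1 had 298.7 (262 counts) in the same tumor, where the others had 82.7 to 132. VEGFC had 117.4 (110 counts) in sh#2 tumor 4, where the other sh#2 tumors had 55.5 to 72.6.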

How the results depend on the processing

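In culture, the 3 members that differed between the hairpins kept their call in every alternative run. In KD tumors the count of members called higher went from 0 to 1, VEGFA, with DESeq2, upper quartile scaling, no low-count filter, a minimum of 10 counts in each tumor and a fit of 3 groups, and was 0 to 1 over the fits that left out 1 tumor. With sh#1 it went from 0 to 1 with no low-count filter. With sh#2 it went from 1 to 0 with the mouse to human ratio as a covariate and was 0 to 1 over the fits that left out 1 tumor. The cause was not tested. Replicate numbers did not pair the samples (correlations of same-numbered deviations from -0.005 to 0.055 in culture and from -0.10 to 0.13 in tumors), and with the replicate block VEGFA in sh#2 tumors was 0.89 (q = 0.0881 in edgeR), while over all genes the calls in cultured KD cells went from 899 higher and 820 lower to 648 and 598. These became 1630 and 1661 with a fit of 3 groups, and in KD tumors 64 higher and 75 lower became 110 and 166 with no low-count filter, 24 and 39 with the covariate, 21 and 27 without shCtrl replicate 1 and 197 and 202 without shCtrl replicate 5. Values near 0 changed sign, none of them called. With the mouse to human ratio as a covariate, ADM was -0.21 and VEGFC 0.053 in KD tumors and VEGFC 0.0094 with sh#2. With sh#1 in tumors, VEGFC was -0.016 and ANGPTL4 0.014 with DESeq2, VEGFC -0.011 with no low-count filter, and VEGFC -0.015 and ANGPTL4 0.016 with the replicate block. Between the hairpins in tumors, STC1 was 0.061 with DESeq2 and 7.33e-04 with upper quartile scaling, and IGFBP3 -0.048 with the replicate block. Mouse Igfbp3 was -0.039 with no low-count filter. Leaving out 1 library gave, in culture, LOXL2 from -0.13 to 0.045 and VEGFB from -0.018 to 0.15 in KD cells, VEGFC from -0.030 to 0.20 with sh#2, and IGFBP3 from -0.028 to 0.028, STC2 from -0.054 to 0.16 and VEGFC from -8.01e-04 to 0.22 between the hairpins. In KD tumors it gave ADM from -0.059 to 0.64, ANGPTL4 from -0.34 to 0.15, VEGFB from -0.17 to 0.011 and VEGFC from -0.15 to 0.25. With sh#1 in tumors it gave ANGPTL4 from -0.29 to 0.29, VEGFB from -0.25 to 0.018 and VEGFC from -0.16 to 0.31, and with sh#2 ADM from -0.45 to 0.21, VEGFB from -0.12 to 0.054 and VEGFC from -0.34 to 0.19. Between the hairpins in tumors it gave IGFBP3 from -0.44 to 0.29, LOXL2 from -0.065 to 0.19, STC1 from -0.31 to 0.16, VEGFB from -0.21 to 0.046 and VEGFC from -0.054 to 0.35. In the mouse table it gave Igfbp3 from -0.11 to 0.18 and Loxl2 from -0.074 to 0.39. Depth limits LOX in culture and in tumors and STC2 in tumors, where counts were under the filter.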
